A study of Mus musculus with 12 samples.

Results

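Haemoglobin, haem and iron handling was followed through 10 genes in mouse striatum after ischemic stroke. They were chosen by symbol from a list drawn up with earlier results of these data in view: Hba-a1, Hba-a2, Hbb-bs, Hbb-bt, Alas2, Cd163, Hmox1, Ftl1, Fth1 and Slc40a1. These are 10 of the 54532 gene rows in the count files, and all 10 passed the filter on low counts. The striatum of C57BL/6J mice was sampled 7 or 14 days after ischemic stroke. The mice were wild type (WT), cGAS-KO or STING-KO, both knockouts having been made with CRISPR-Cas9. There are 6 groups of day and genotype with 2 libraries each, 12 in all. Every group had a stroke, so no uninjured level is given here, and the labels give neither age nor sex. The labels do not say that the 2 libraries of a group came from separate mice, so the p-values measure the spread between libraries, which may be technical.

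An adult haemoglobin molecule joins alpha chains (Hba-a1, Hba-a2) and beta chains (Hbb-bs, Hbb-bt) around haem, and Alas2 is the enzyme that starts haem synthesis in developing red cells. When red cells break down in tissue, the scavenger receptor Cd163 on macrophages takes up haemoglobin bound to haptoglobin, and haem oxygenase 1 (Hmox1) opens the haem ring, which releases iron. The iron is stored in ferritin, built from heavy (Fth1) and light (Ftl1) chains, or leaves the cell through ferroportin (Slc40a1). Globin RNA is therefore commonly read as a trace of blood in a tissue, and Hmox1, ferritin and ferroportin as parts of haem and iron clearance. Some neurons and glia also make low amounts of globin RNA, and ferritin heavy chain is abundant in oligodendrocytes and microglia.

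For the red cell genes, the promoters are shown because these genes moved together in the libraries. Each line holds the 150 bases before the RefSeq gene start (GRCm38.p6), written 5′ to 3′ on the gene's strand, with the CACCC box, the CCAAT box and the ATATAA box in capitals, each searched on both strands (GGGTG and ATTGG are the first and the second read on the other strand; neighbouring matches may overlap).
Hba-a1: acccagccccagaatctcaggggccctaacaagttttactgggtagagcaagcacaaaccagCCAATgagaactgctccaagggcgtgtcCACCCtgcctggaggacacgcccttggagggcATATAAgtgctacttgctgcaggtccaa
Hbb-bs: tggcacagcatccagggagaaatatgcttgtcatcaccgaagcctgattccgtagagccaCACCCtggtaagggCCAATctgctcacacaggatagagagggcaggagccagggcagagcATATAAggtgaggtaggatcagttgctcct
Hbb-bt: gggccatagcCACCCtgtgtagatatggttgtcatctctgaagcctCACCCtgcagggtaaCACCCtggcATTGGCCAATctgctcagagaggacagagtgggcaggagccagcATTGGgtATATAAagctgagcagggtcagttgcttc
Alas2: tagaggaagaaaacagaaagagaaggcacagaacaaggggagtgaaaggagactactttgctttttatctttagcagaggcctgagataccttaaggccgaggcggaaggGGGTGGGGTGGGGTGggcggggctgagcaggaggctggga
They lie on chromosome 11 (chr11:32283522-32283671, plus strand), on chromosome 7 (chr7:103827929-103828078 and chr7:103813924-103814073, both minus strand) and on chromosome X (chrX:150547267-150547416, plus strand). The Hba-a2 promoter (chr11:32296342-32296491, plus strand) matched that of Hba-a1 at 147 of 147 aligned bases, whereas Hbb-bs and Hbb-bt matched at 106 of 149. All 4 globin promoters hold each of the 3 boxes, and Alas2 holds CACCC boxes on the other strand without CCAAT or ATATAA. Over 32851 RefSeq promoters, 37.4% held CACCC, 24.5% held CCAAT and 5.4% held ATATAA in a window of the same length. A match describes these letters only.

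For ferritin, ferroportin and Alas2, a shared sequence lies in the RNA. Iron regulatory proteins bind a hairpin, the iron-responsive element, in the 5′ UTR of certain messages and block their translation when iron is scarce. Its apical loop CAGTGN (in capitals) with the unpaired C and the 5-base stem on either side was found in 4 of the 10 genes.
Alas2: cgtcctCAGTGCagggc
Fth1: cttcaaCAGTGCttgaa
Ftl1: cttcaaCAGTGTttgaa
Slc40a1: cagctaCAGTGTtagct
The search covered the annotated 5′ UTR of 20883 genes (GENCODE vM21 on mm10), of which 31, or 0.148%, held such a hairpin. RNA counts do not measure the translation that this element controls.

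Several of the genes share long stretches with another gene, which bounds how far their counts can be assigned. Of all windows of the 150-base read length in the main transcript, 48.4% of Hba-a1 and 65.7% of Hba-a2 were identical between these neighbours, as were 58.7% of Hbb-bs and 50.7% of Hbb-bt. For Ftl1 (chr7:45457944-45459884, minus strand) 70.0% of windows occurred also in a pseudogene or gene model such as Ftl1-ps1. Alas2 shared 8.6% with Apex2, which overlaps it on the other strand. Levels are in CPM, counts scaled to a common library total with TMM factors. Apex2 stayed between 4.42 and 8.89 CPM in the 12 libraries. Cd163, Hmox1, Fth1 and Slc40a1 shared none. How the counting treated reads that fit several places, and strand, is not given in the sources used here, so the split within each globin pair and the Ftl1 level are uncertain to that extent.

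Each library held 15956242 to 22126213 counts, so 3 counts correspond to 0.133 to 0.195 CPM after scaling. Set against WT, the targeted genes went against the labels at 7 days and not at 14 days. Cgas had 5.55 and 5.65 CPM in the libraries labelled 7-day cGAS-KO, above the 3.25 and 2.96 CPM of the 7-day WT libraries. Tmem173, the gene of STING, had 20.9 and 23.8 CPM in those labelled 7-day STING-KO against 2.80 and 2.71 CPM in 7-day WT. Between the 7-day knockouts, each had the lower level of its own targeted gene. Cgas had 11.2 and 12.6 CPM in 7-day STING-KO, and Tmem173 had 28.6 and 30.2 CPM in 7-day cGAS-KO. At 14 days Cgas had 4.09 and 6.15 CPM in cGAS-KO, a mean of 4.04 ± 0.65 CPM (SD, n = 2) in STING-KO and 12.6 and 7.68 CPM in WT. Cgas thus did not set the 14-day knockouts apart from each other. Tmem173 had 2.40 and 5.21 CPM in 14-day STING-KO, 18.4 and 18.1 CPM in 14-day cGAS-KO and 22.2 and 20.8 CPM in 14-day WT. RNA of a targeted gene does not measure its protein, so this checks the labels only in part, and every genotype below is the labelled one. The 7-day WT and 14-day STING-KO libraries stood apart from the other 8. Summed over 10 microglia markers, they had 300.4 to 313.5 and 574.2 to 1089 CPM, and the other 8 libraries 2075 to 3887 CPM. Summed over 10 general neuron markers they had 6988 to 7541 and 4678 to 5313 CPM, and the others 1314 to 3224 CPM. The 10 striatal projection neuron markers summed to 131.4 to 452.0 CPM in the 6 libraries of day 7, WT included, against 759.3 to 6255 CPM at day 14. Every comparison that includes 7-day WT or 14-day STING-KO rests wholly on such libraries and cannot be given without them. Of the tested comparisons, those without them are cGAS-KO against WT at 14 days and 14 against 7 days in cGAS-KO. The levels of 7-day cGAS-KO set beside those of 7-day STING-KO, given without a test, also do without them.

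Globin RNA was highest in the 7-day cGAS-KO libraries. Hbb-bs, the beta chain gene with the higher counts, had 420.4 and 340.9 CPM there. It had 18.7 and 38.3 CPM in 7-day WT and 22.0 and 38.6 CPM in 7-day STING-KO. At 14 days the WT libraries had 134.4 and 38.2 CPM, those of cGAS-KO 58.4 and 111.5 CPM, and those of STING-KO 49.6 and 22.3 CPM. Both 7-day cGAS-KO libraries thus lay above the other 10, and the 2 libraries of 14-day WT were farther apart than most groups. Hba-a1, an alpha chain, followed the same order, with 326.0 and 252.3 CPM in 7-day cGAS-KO and 17.0 to 141.5 CPM in the other 10 libraries. Hba-a2, its neighbour, had 63.8 and 57.7 CPM there and 3.59 to 52.8 CPM elsewhere. Hbb-bt, the beta chain gene with the lower counts, had 45.5 and 45.0 CPM there and 1.82 to 8.81 CPM elsewhere. Alas2 had 10.3 and 11.0 CPM there and 0.897 to 6.30 CPM elsewhere. The 4 globin genes and Alas2 together took 0.0722 to 0.0891% of counts in the 7-day cGAS-KO libraries and 0.00426 to 0.0350% in the others.

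**Figure D1:**
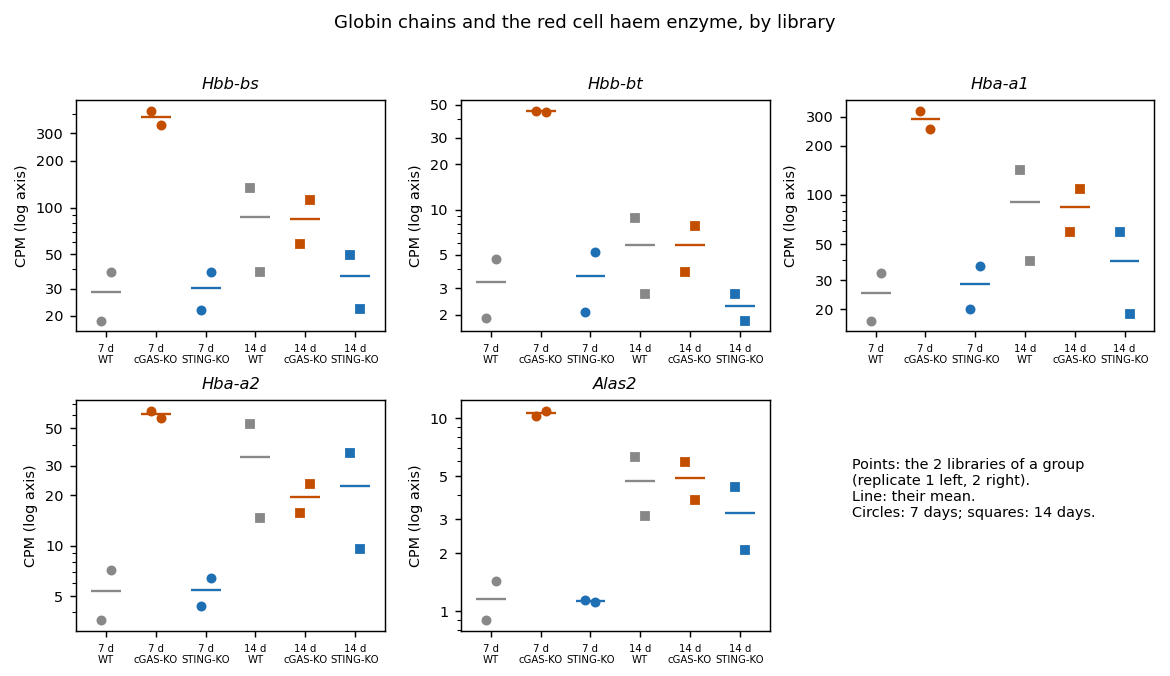
CPM (log axis) of the 4 globin genes and Alas2 in each of the 12 libraries, with 2 points and their mean for each group of day and genotype. For Hbb-bs the 7-day cGAS-KO libraries are at 420.4 and 340.9 CPM and the other 10 between 18.7 and 134.4 CPM.

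Genes that mark red cells beyond haemoglobin were nearly absent. Of 17 such genes listed, 16 matched a row and only Ermap passed the filter. Slc4a1, the red cell anion exchanger, had at most 8 counts in any library. Klf1, the erythroid transcription factor, had at most 7 counts, and Gata1 at most 3. The list summed to 2.36 to 3.56 CPM in 7-day cGAS-KO, 1.46 to 1.48 CPM in 7-day WT and 2.86 to 3.32 CPM in 7-day STING-KO. The embryonic chains Hba-x, Hbb-bh1 and Hbb-bh2 had 0 counts in every library, and Hbb-y at most 2. Of the 9 other globin genes listed, 3 could be tested. Among them Cygb, cytoglobin, was lower in 7-day cGAS-KO than in 7-day WT, by 0.96 ± 0.25 on the log2 scale (edgeR, adjusted p = 0.00642), and the other two, Ngb and Mb, did not pass the test.

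At 7 days, all 10 genes were higher in cGAS-KO than in WT at an adjusted p below 0.05 (quasi-likelihood test of edgeR, Benjamini-Hochberg adjustment over 19822 genes). In this comparison 27.8% of all genes tested were called higher and 22.4% lower. The median log2 change of the 10 was 3.50, against 0.04 over all genes tested. All 5 red cell genes rose. They were listed when an earlier account of blood genes in the 7-day knockouts was known, so their calls here are not independent of that choice. Hbb-bs rose by 3.74 ± 0.63 (log2, SE; adjusted p = 0.000501), or 13.3-fold, and Alas2 by 3.17 ± 0.45 (adjusted p = 0.000113). Hbb-bt, Hba-a1 and Hba-a2 rose by 3.76, 3.52 and 3.48. Hmox1 rose by 4.47 ± 0.27 (adjusted p = 3.5e-07), or 22.2-fold, and Ftl1 by 4.61 ± 0.37 (adjusted p = 2.06e-06), or 24.4-fold. Slc40a1 rose by 2.06 ± 0.18 (adjusted p = 3.47e-06), Cd163 by 1.92 ± 0.66 (adjusted p = 0.0315) and Fth1 by 0.75 ± 0.24 (adjusted p = 0.0201). The calls of Cd163 and Fth1 rested on single libraries. Without 7-day cGAS-KO replicate 1 the Cd163 change was 0.59 (adjusted p = 0.516) and that of Fth1 0.65 (adjusted p = 0.102). Without 7-day WT replicate 2 they were 1.42 (adjusted p = 0.208) and 0.59 (adjusted p = 0.158), and without 7-day cGAS-KO replicate 2 the Fth1 change was 0.72 (adjusted p = 0.0671).

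In 7-day STING-KO the genes of haem breakdown, iron storage and iron export were called, and the red cell genes and Cd163 were not. Hmox1, Ftl1, Fth1 and Slc40a1 were higher than in WT, 4 of 10 where 26.3% of all genes were called higher and 22.6% lower. Hmox1 rose by 4.89 ± 0.28 (log2, SE; adjusted p = 1.78e-07), Ftl1 by 4.63 ± 0.37 (adjusted p = 1.93e-06), Fth1 by 1.06 ± 0.24 (adjusted p = 0.00297) and Slc40a1 by 1.43 ± 0.18 (adjusted p = 5.76e-05). The red cell genes overlapped with WT. Their log2 differences lay between -0.06 and 0.19, and that of Hbb-bs was 0.09 ± 0.59 (adjusted p = 0.915). Their SEs were 0.59 to 0.73, so a difference of that size was not detectable here. Cd163 differed by 1.28 ± 0.68 (adjusted p = 0.141), with overlapping libraries. Both comparisons at 7 days share the same WT libraries.

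**Figure D2:**
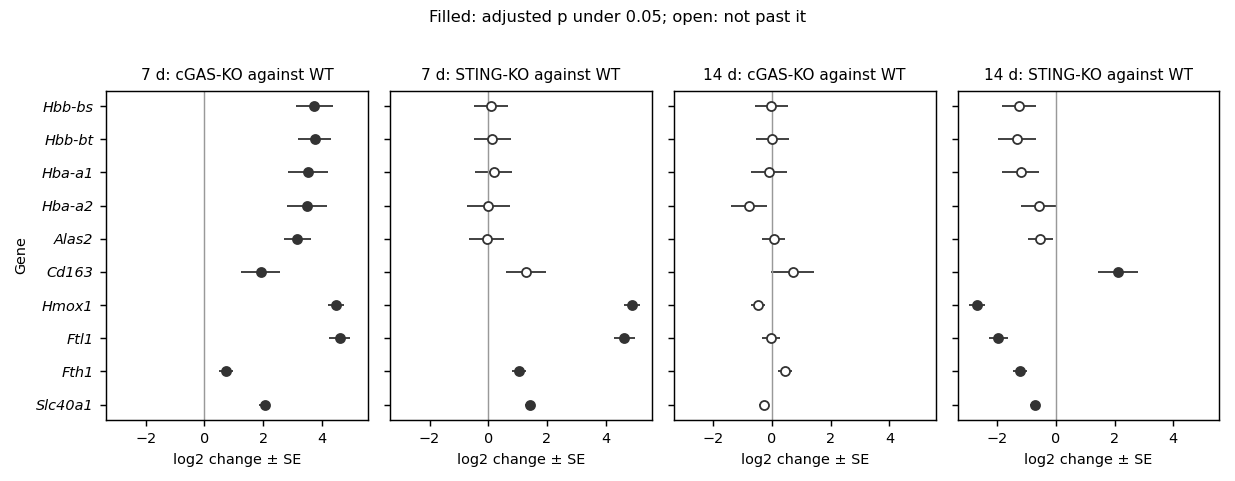
Log2 change with its SE for each of the 10 genes in the 4 comparisons of a knockout with WT of the same day, from 2 libraries a group; filled points passed an adjusted p of 0.05. At 7 days all 10 are filled for cGAS-KO and 4 for STING-KO, and at 14 days none and 5.

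Set directly beside each other at 7 days, cGAS-KO and STING-KO libraries differed in the red cell genes by 3.23 to 3.65 on the log2 scale. The libraries did not overlap for any of the 5, but such separation is common with 2 libraries a group. Between 7-day cGAS-KO and WT, 8304 of 19822 genes lay wholly higher and 7589 wholly lower. The share for the 2 knockouts is not given here. No test is given, because an earlier account of these data, known when the genes were listed, already showed blood genes to differ there; calls of the red cell genes that use the 7-day cGAS-KO libraries are not independent of that choice either. Ftl1 differed by -0.03 with overlapping libraries, at 2111 and 2030 CPM in cGAS-KO and 2156 and 2063 CPM in STING-KO. Hmox1 was the lower in cGAS-KO, with 134.4 and 123.6 CPM against 199.2 and 145.6 CPM. Slc40a1 was the higher in cGAS-KO, with 34.0 and 42.5 CPM against 25.4 and 24.1 CPM. Hmox1 and Ftl1 were thus high in both knockout groups of day 7, while summed globin RNA was 855.7 and 695.9 CPM in one and 48.5 and 87.2 CPM in the other, the latter near the 41.2 and 83.3 CPM of 7-day WT.

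**Figure D3:**
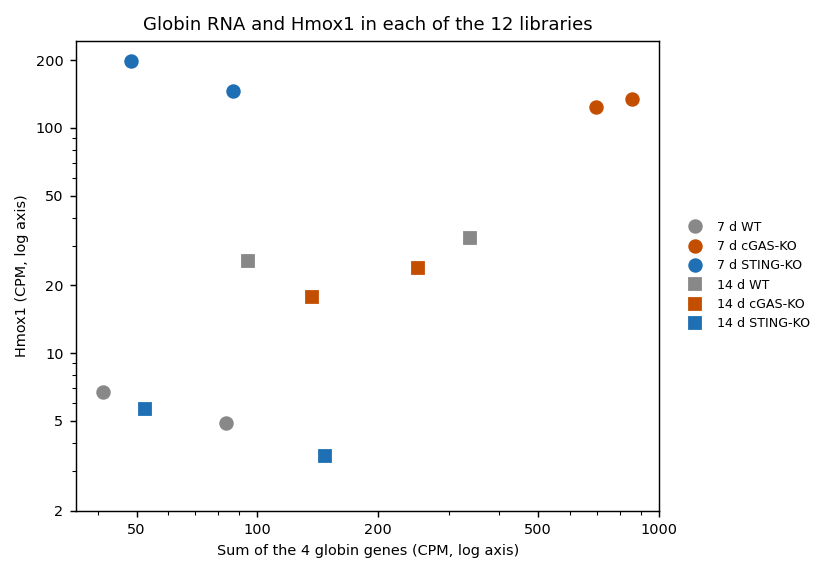
Hmox1 against the sum of the 4 globin genes in each of the 12 libraries (both in CPM, log axes; circles 7 days, squares 14 days). The 7-day STING-KO libraries have the 2 highest Hmox1 values, 199.2 and 145.6 CPM, at globin sums of 48.5 and 87.2 CPM.

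Hmox1 fell into 3 levels over the series. It was highest in the knockout libraries of day 7, between 123.6 and 199.2 CPM. It was between 17.8 and 32.3 CPM in WT and cGAS-KO at 14 days. It was between 3.48 and 6.73 CPM in 7-day WT and 14-day STING-KO, the groups with few microglial transcripts. The genes nearest to its pattern over the 12 libraries, by the root mean square difference of centred log2 CPM, were E2f2 (0.29), Hcls1 (0.31), Apobr (0.32) and Glipr1 (0.38). Among the 10 genes, Ftl1 was the nearest to Hmox1 (0.40) and Hbb-bs stood at 1.87. Hbb-bs itself was nearest to Hba-a1 (0.19), Hbb-bt (0.41), Hba-a2 (0.66) and Alas2 (0.68). The nearest genes outside the list, Efemp1 (0.87), She (0.94), Crispld2 (0.94) and Col6a2 (0.95), were farther away, and Efemp1 stood at 94.9 and 34.9 CPM in 7-day cGAS-KO and 7.46 to 22.4 CPM elsewhere.

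**Figure D4:**
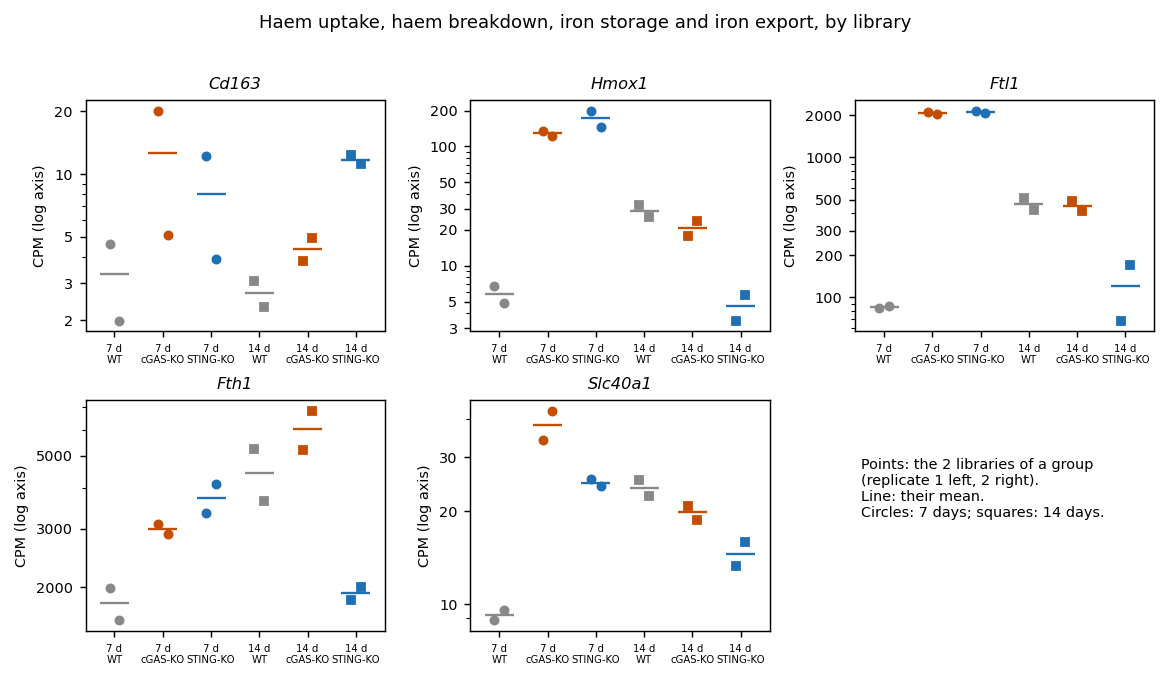
CPM (log axis) of Cd163, Hmox1, Ftl1, Fth1 and Slc40a1 in each of the 12 libraries, with 2 points and their mean for each group. Hmox1 and Ftl1 are highest in both knockout groups of day 7, and Fth1 is highest in 14-day cGAS-KO, at 5192 and 6851 CPM.

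The ferritin chains did not move in proportion. Ftl1, the light chain, had 83.5 and 86.5 CPM in 7-day WT and 68.2 and 170.9 CPM in 14-day STING-KO. It had 2030 to 2156 CPM in the 4 knockout libraries of day 7 and 412.4 to 511.3 CPM in the 4 WT and cGAS-KO libraries of day 14. Fth1, the heavy chain, spanned a narrower range, from 1585 to 6851 CPM. It was highest in 14-day cGAS-KO (5192 and 6851 CPM) and 14-day WT (5226 and 3645 CPM), and had 2896 to 4099 CPM in the knockouts of day 7. Per kilobase of the main transcript, the ratio of Ftl1 to Fth1 was 0.483 to 0.673 in the 4 knockout libraries of day 7 and 0.0359 to 0.110 in the other 8. Ftl1-ps1, a pseudogene that shares much of the Ftl1 sequence, had 36.0 to 45.7 CPM in those 4 libraries and 0.240 to 4.79 CPM in the others. Oligodendrocyte markers, which moved with Fth1 at day 14, summed to 28060 to 31710 CPM in 14-day cGAS-KO, 20670 to 21600 CPM in 14-day WT and 8730 to 8978 CPM in 14-day STING-KO. Their part in the Fth1 level was not tested, and fewer cells of a type cannot be told apart from less RNA per cell in such bulk tissue.

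Slc40a1, the iron exporter of the cell membrane, had 8.85 and 9.55 CPM in 7-day WT, the lowest of all groups, and 34.0 and 42.5 CPM in 7-day cGAS-KO, the highest. The 14-day STING-KO libraries were the next lowest, with 13.3 and 15.9 CPM. The other groups lay between 18.8 and 25.4 CPM, and those of 7-day STING-KO and 14-day WT differed by less than their spread. The nearest genes to its pattern were Serp1 (0.19), Slc38a6 (0.19), Itih5 (0.20) and Lpar2 (0.20).

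Cd163 took yet another course and varied between the libraries of a group. It had 20.1 and 5.09 CPM in 7-day cGAS-KO, 12.2 and 3.92 CPM in 7-day STING-KO and 4.65 and 1.99 CPM in 7-day WT. At 14 days the WT libraries had 3.09 and 2.30 CPM, those of cGAS-KO 3.82 and 4.96 CPM, and those of STING-KO 12.4 and 11.1 CPM. The 14-day STING-KO libraries lay close together, whereas the spread in the 7-day knockouts was as large as the difference between groups. Of the 10 other markers of border-associated macrophages, the cells that carry Cd163 in the healthy brain, none was called higher in 14-day STING-KO than in 14-day WT and 4 were called lower. Over all genes, 16.5% were called higher and 17.4% lower there. Against 14-day cGAS-KO, 5 of the 10 markers had higher and 5 lower fitted levels in STING-KO. The 2 called were lower in STING-KO, where 18.2% of all genes were. Stab1, a scavenger receptor, had 1164 to 1455 CPM in the 7-day knockouts and 16.0 and 31.9 CPM in 14-day STING-KO. The 10 markers of these cells summed to 1464 to 1690 CPM in 7-day cGAS-KO, 1377 to 1635 CPM in 7-day STING-KO, 25.3 to 31.3 CPM in 7-day WT and 25.3 to 40.0 CPM in 14-day STING-KO. Most of each of these sums was Stab1. The nearest genes to the Cd163 pattern were Grb10 (0.58), Fam198b (0.61), Ebf1 (0.61) and Gm41442 (0.61).

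At 14 days, none of the 10 genes was called between cGAS-KO and WT. The call rate over all genes was 0% higher and 0.0303% lower. No gene of the 10 had an unadjusted p under 0.05 in edgeR, and DESeq2 called 0. The largest differences were -0.79 ± 0.60 for Hba-a2 (adjusted p = 0.662), 0.70 ± 0.73 for Cd163 (adjusted p = 0.759) and -0.47 ± 0.24 for Hmox1 (adjusted p = 0.485). Hbb-bs differed by -0.02 ± 0.57 (adjusted p = 0.995). With the 7-day WT and 14-day STING-KO libraries left out of the fit, 0 of 10 were called again.

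STING-KO at 14 days was lower than WT in Hmox1, both ferritin chains and Slc40a1, and higher in Cd163. Hmox1 fell by 2.67 ± 0.27 on the log2 scale (adjusted p = 6.49e-05), Ftl1 by 1.96 ± 0.33 (adjusted p = 0.00103), Fth1 by 1.21 ± 0.24 (adjusted p = 0.00249) and Slc40a1 by 0.71 ± 0.18 (adjusted p = 0.00977). Cd163 rose by 2.12 ± 0.69 (adjusted p = 0.0346). Thus 1 gene of 10 was called higher, where 16.5% of all genes were, and 4 lower, where 17.4% were. The globin genes and Alas2 differed by -1.32 to -0.53 and none was called. Cd163 lost its call with each of the 4 libraries omitted in turn (adjusted p between 0.0955 and 0.157). Slc40a1 was not called without 14-day WT replicate 1 (log2 change -0.63, adjusted p = 0.0683) or without 14-day STING-KO replicate 1 (-0.57, adjusted p = 0.0668); either omission left 3 genes called. Without 14-day WT replicate 2, which had the lower globin level, Hbb-bs, Hbb-bt and Hba-a1 passed the threshold, with log2 changes of -1.92 (adjusted p = 0.0253), -1.95 (adjusted p = 0.0416) and -1.87 (adjusted p = 0.0450).

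Against STING-KO of the same day, 14-day cGAS-KO was higher in Hmox1 by 2.20 ± 0.27 (log2, SE; adjusted p = 0.000249), in Ftl1 by 1.92 ± 0.33 (adjusted p = 0.00129) and in Fth1 by 1.65 ± 0.24 (adjusted p = 0.000533). This is 3 of 10, where 18.2% of all genes were called higher and 17.7% lower. Slc40a1 differed by 0.45 ± 0.18 (adjusted p = 0.0710) and passed the threshold without 14-day STING-KO replicate 2 (0.60, adjusted p = 0.0437). Cd163 differed by -1.42 ± 0.63 (adjusted p = 0.103), and passed the threshold when only the compared libraries were fitted (-1.42, adjusted p = 0.0141). These comparisons share the STING-KO libraries with the preceding one. Summed microglia markers were lower in the same STING-KO libraries (574.2 to 1089 CPM, against 2075 to 2151 CPM in cGAS-KO and 2455 to 2618 CPM in WT), and their part in these differences was not tested.

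From 7 to 14 days the genes went in different directions by genotype. In WT, 8 of 10 were higher at 14 days and none lower, where 24.1% of all genes were called higher and 19.7% lower. Hmox1 rose by 2.32 ± 0.26 (log2, SE; adjusted p = 4.19e-05), Ftl1 by 2.45 ± 0.33 (adjusted p = 0.000161), Fth1 by 1.31 ± 0.24 (adjusted p = 0.00101) and Slc40a1 by 1.37 ± 0.18 (adjusted p = 0.000123). These 4 kept their calls with each library left out in turn. The red cell genes did not: Hba-a2 rose by 2.63 (adjusted p = 0.00874), Alas2 by 1.99 (adjusted p = 0.00599), Hba-a1 by 1.85 (adjusted p = 0.0373) and Hbb-bs by 1.60 (adjusted p = 0.0470), though the Hbb-bs libraries touched, at 38.3 CPM on day 7 and 38.2 CPM on day 14. Without 14-day WT replicate 1, their changes were 1.41 (adjusted p = 0.134), 1.40 (adjusted p = 0.0759), 0.63 (adjusted p = 0.493) and 0.41 (adjusted p = 0.627), and 4 of 10 genes remained called. Without 7-day WT replicate 1 they were 2.19 (adjusted p = 0.0788), 1.68 (adjusted p = 0.0571), 1.41 (adjusted p = 0.216) and 1.14 (adjusted p = 0.264), again with 4 called. Without 7-day WT replicate 2, Hba-a1 and Hbb-bs had adjusted p of 0.0682 and 0.0619. Without a filter on low counts Hba-a1, Hba-a2 and Hbb-bs lost their calls, and 5 of 10 genes were called.

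In cGAS-KO, 6 of 10 were lower at 14 than at 7 days and Fth1 was higher, where 13.4% of all genes were called higher and 17.0% lower. Hbb-bt fell by 2.97 ± 0.52 (log2, SE; adjusted p = 0.00186), Hmox1 by 2.63 ± 0.24 (adjusted p = 3.76e-05), Ftl1 by 2.20 ± 0.33 (adjusted p = 0.000636), Hbb-bs by 2.16 ± 0.58 (adjusted p = 0.0173), Alas2 by 1.12 ± 0.36 (adjusted p = 0.0362) and Slc40a1 by 0.95 ± 0.17 (adjusted p = 0.00194). Fth1 rose by 1.01 ± 0.24 (adjusted p = 0.00826). Hba-a1 and Hba-a2 changed by -1.79 and -1.64 and missed the threshold (adjusted p = 0.0510 and 0.0615). With the 7-day WT and 14-day STING-KO libraries out of the fit, both passed it (adjusted p = 0.0437 and 0.0387), and 9 of 10 genes were called. Alas2 lost its call with any 1 of the 4 libraries left out (adjusted p from 0.0521 to 0.187). Hbb-bs lost it without 7-day cGAS-KO replicate 1 (-2.01, adjusted p = 0.0898) or 14-day cGAS-KO replicate 1 (-1.79, adjusted p = 0.129), and Fth1 without 14-day cGAS-KO replicate 2 (0.78, adjusted p = 0.0665). Cd163 changed by -1.50 (adjusted p = 0.0934) and passed without 7-day cGAS-KO replicate 2 (-2.16, adjusted p = 0.0167).

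In STING-KO, Hmox1 fell by 5.24 ± 0.29 from 7 to 14 days (log2, SE; adjusted p = 1.97e-07), Ftl1 by 4.14 ± 0.36 (adjusted p = 3.48e-06), Fth1 by 0.96 ± 0.24 (adjusted p = 0.00451) and Slc40a1 by 0.76 ± 0.18 (adjusted p = 0.00327). Hba-a2 rose by 2.06 ± 0.68 (adjusted p = 0.0227) and Alas2 by 1.52 ± 0.52 (adjusted p = 0.0257), while Hbb-bs differed by 0.25 ± 0.59 (adjusted p = 0.738). The counts were 2 higher and 4 lower of 10, where 27.4% of all genes were called higher and 29.5% lower. The rise of Hba-a2 and Alas2 was lost without 14-day STING-KO replicate 1 (0.81, adjusted p = 0.416, and 0.89, adjusted p = 0.283). It was lost also without 7-day STING-KO replicate 1 (adjusted p = 0.127 and 0.0869) and without 7-day STING-KO replicate 2 (adjusted p = 0.0676 and 0.101).

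Whether a knockout's difference from WT itself changed between the days was tested as an interaction. For cGAS-KO, 8 of 10 genes had a lower difference at 14 than at 7 days, all but Cd163 and Fth1, where 15.7% of all genes were called higher and 21.0% lower. Hmox1 gave -4.95 ± 0.36 (log2, SE; adjusted p = 2.45e-06) and Hbb-bs -3.76 ± 0.83 (adjusted p = 0.00441). Without a filter on low counts Hbb-bs and Hba-a1 lost that call (adjusted p = 0.0585 and 0.0879). For STING-KO, Hmox1 (-7.56 ± 0.38, adjusted p = 8.26e-08), Ftl1 (-6.59 ± 0.49, adjusted p = 8.57e-07), Fth1 (-2.27 ± 0.34, adjusted p = 0.000143) and Slc40a1 (-2.14 ± 0.26, adjusted p = 2.73e-05) had lower differences at 14 days, 4 of 10, where 24.3% were called higher and 27.6% lower. The globin genes gave -1.45 to -0.57 in STING-KO and were not called; Hbb-bs passed without 14-day WT replicate 2 (-1.96, adjusted p = 0.0443).

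The ratio within the beta globin pair separated the days. Counts of Hbb-bt were 0.0940 to 0.134 of those of Hbb-bs in the 6 libraries of day 7 and 0.0556 to 0.0816 in the 6 of day 14, with no overlap. Counts of Hba-a2 were 0.175 to 0.229 of those of Hba-a1 on day 7 and 0.214 to 0.599 on day 14. The highest values were 0.599 and 0.505 in 14-day STING-KO. Per kilobase, alpha chains together were 0.766 to 0.967 of the beta chains on day 7 and 1.05 to 1.80 on day 14. These ratios are given without a test, and they rest on the split of reads between near-identical copies. Whether day 7 and day 14 libraries were made in the same batch is not stated, so the day and a batch cannot be told apart.

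**Figure D5:**
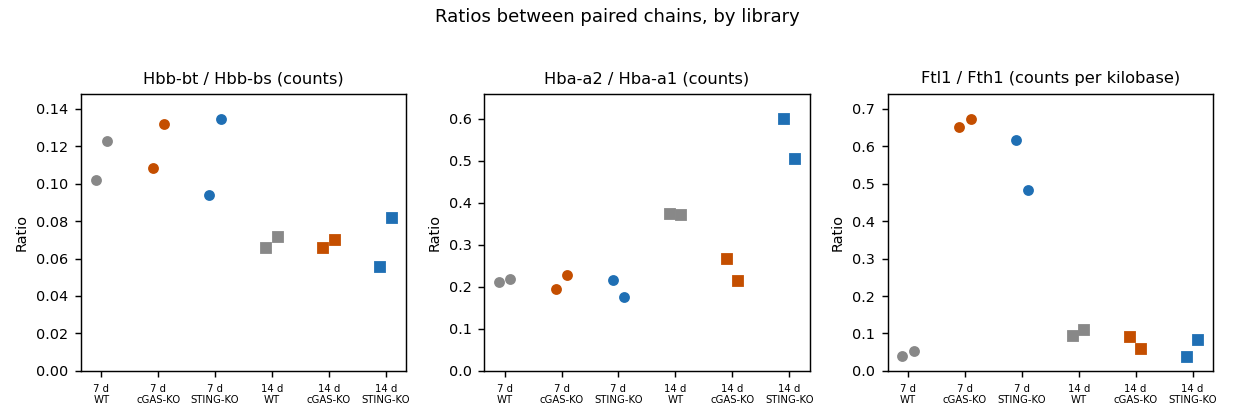
Ratio of Hbb-bt to Hbb-bs counts, of Hba-a2 to Hba-a1 counts, and of Ftl1 to Fth1 counts per kilobase in each of the 12 libraries (circles 7 days, squares 14 days). Every day 7 library is at or above 0.0940 for Hbb-bt to Hbb-bs and every day 14 library at or below 0.0816.

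Other genes of haem and haemoglobin clearance moved with Hmox1 at 7 days. Of 13 listed, 12 were tested. Over all genes, 27.8% were called higher and 22.4% lower in cGAS-KO, and 26.3% and 22.6% in STING-KO. In both cGAS-KO and STING-KO 8 of the 12 were higher than in WT and none lower. Their median log2 change was 1.28 and 1.57, against 0.04 and 0.03 over all genes tested. Lrp1, the receptor for haem bound to haemopexin, was among them, with 1.19 ± 0.21 (adjusted p = 0.000540) in cGAS-KO and 1.54 ± 0.21 (adjusted p = 9.45e-05) in STING-KO. Slc48a1, a haem transporter, and Mafg, a partner of the repressor Bach1, were not called. Picked after their values were seen, Blvrb, a biliverdin reductase, gave 2.18 and 1.92, Bach1 1.94 and 1.89, and Hp, haptoglobin, 3.71 and 5.42. At 14 days 0 of the 12 were called in cGAS-KO against WT, where 0% of all genes were called higher and 0.0303% lower. In STING-KO 5 of the 12 were lower, where 17.4% of all genes were, with Slc48a1 at -0.92 ± 0.24 (adjusted p = 0.0122).

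Genes of iron uptake, transport and control were mixed. Of 36 listed, 30 were tested. At 7 days 14 were higher and 3 lower in cGAS-KO than in WT (median 0.57), where 27.8% and 22.4% of all genes were. In STING-KO 16 were higher and 2 lower (median 0.64), where 26.3% and 22.6% of all genes were. Of the most abundant, Slc22a17, the lipocalin receptor, was lower in cGAS-KO (-0.89 ± 0.33, adjusted p = 0.0410), and the iron chaperone Pcbp1 was higher in STING-KO (0.45 ± 0.17, adjusted p = 0.0407), while Pcbp2 was called in neither. Picked after their values were seen, Slc11a1, the phagosomal metal transporter, rose by 4.83 and 4.65, and Tfrc, the transferrin receptor whose RNA is protected when iron is scarce, fell by 1.13 and 0.68. At 14 days 9 were lower and 1 higher in STING-KO than in WT, where 17.4% and 16.5% of all genes were. In cGAS-KO 0 were called, where 0% of all genes were called higher and 0.0303% lower.

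The other genes listed for haem synthesis, not all of them enzymes, did not follow Alas2. Of 12 tested, 2 were higher and 1 lower in 7-day cGAS-KO than in WT, with a median of 0.02, and 2 higher and 1 lower in STING-KO, with a median of 0.09. Over all genes, 27.8% were called higher and 22.4% lower in cGAS-KO, and 26.3% and 22.6% in STING-KO. Alas1, the form used outside red cells, gave 0.35 ± 0.14 (adjusted p = 0.0501) and 0.48 ± 0.13 (adjusted p = 0.0109). Cpox and Fech were called in neither. Of 9 targets of NRF2, a transcription factor that also acts on Hmox1, Ftl1 and Fth1, 6 were higher and 1 lower in cGAS-KO, and 6 higher and none lower in STING-KO. Txnrd1 rose by 0.72 and 0.74, whereas Gclm and Gclc were not called.

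Markers of other cells moved in the same 7-day comparisons, for which their part in the results was not tested. Over all genes, 27.8% were called higher and 22.4% lower in cGAS-KO, and 26.3% and 22.6% in STING-KO. All 10 microglia markers and all 11 phagocyte activation genes were higher in both knockouts than in WT, with medians of 2.93 and 6.49 in cGAS-KO and 3.21 and 7.05 in STING-KO. Choroid plexus markers, of which 10 of 10 were higher in cGAS-KO and 9 of 10 in STING-KO, summed to 2582 to 4648 and 2848 to 4609 CPM, against 85.5 to 148.3 CPM in WT. Most of this sum was Ttr, with 2374 and 4202 CPM in 7-day cGAS-KO and 4222 and 2634 CPM in 7-day STING-KO. Some markers of white blood cells were also called higher. Of 9 monocyte markers, 8 were called higher in cGAS-KO and 6 in STING-KO, and they summed to 644.1 to 1451 and 938.5 to 1316 CPM, against 120.5 to 127.3 CPM in WT. Most of this sum was Fn1, with 1317 and 522.5 CPM in 7-day cGAS-KO and 1217 and 822.8 CPM in 7-day STING-KO. The sum therefore mainly follows 1 gene. Of 10 neutrophil markers 4 could be tested, of which 3 were called higher in each knockout. The 10 neutrophil markers summed to 20.1 to 21.5 CPM in 7-day cGAS-KO, 17.5 to 26.5 CPM in 7-day STING-KO and 0.78 to 1.33 CPM in 7-day WT. Mmp8 alone had 10.55 and 14.19 CPM in 7-day cGAS-KO and 10.95 and 14.92 CPM in 7-day STING-KO. Ly6g had at most 2 counts and Elane at most 4 in any library. Of 8 lymphocyte markers tested, 3 were called higher in each knockout, where 27.8% and 26.3% of all genes were. The lymphocyte sums were 6.84 to 13.1 and 4.59 to 7.94 CPM against 1.58 to 2.30 CPM in WT. Of 5 platelet markers tested, 2 were called higher and 1 lower in cGAS-KO, and 1 higher and 1 lower in STING-KO, with sums of 7.45 to 18.0 and 8.31 to 9.05 CPM against 5.57 to 6.22 CPM in WT. Endothelial markers summed to 677.6 to 1349 CPM in 7-day cGAS-KO, 636.3 to 762.8 CPM in 7-day STING-KO and 290.9 to 294.9 CPM in 7-day WT. The monocyte, neutrophil, lymphocyte, platelet and endothelial sums of the 7-day cGAS-KO and STING-KO libraries overlapped. Within 7-day cGAS-KO, replicate 1 had the higher globin sum (855.7 against 695.9 CPM) and the higher of each of these sums. Within 7-day STING-KO, replicate 2 had the higher globin sum (87.2 against 48.5 CPM). Its neutrophil, lymphocyte and platelet sums were the higher, and its monocyte and endothelial sums the lower. The part of blood or vessel content in the globin levels was not tested.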

How the data were processed

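RNA of the striatum was sequenced as polyA+ libraries (paired reads of 150 bases, per the labels' protocols). The authors aligned reads with HISAT2 to mm10 and counted them with featureCounts, per the submitters' processing notes; their versions, the annotation release, strand and multi-mapping settings are not given in the sources used here. The deposited values are raw read counts per Ensembl gene, 15956242 to 22126213 per library. Symbols came from GENCODE vM21 (54495 of 54532 IDs matched). Counts were scaled by TMM and filtered with filterByExpr, and edgeR 4.0.16 (R 4.3.3) fitted 1 quasi-likelihood model to all 12 libraries without a replicate block; 10 contrasts were tested, each adjusted over 19822 genes by Benjamini-Hochberg, and an adjusted p under 0.05 was called. The SE is the log2 change divided by the root of the F statistic. CPM is the count over the scaled library total. The script was tested on simulated data. Precision rests on 2 libraries a group; the common biological coefficient of variation was 0.194. Alternatives were DESeq2 1.42.0, its size factors, other filters, fits of the compared libraries only, a replicate block, other library totals, and omitted libraries or groups. The text names all 10 genes, the targeted genes, the 3 most abundant genes of each other list and the 4 nearest genes in pattern. The members and lists were chosen with earlier results of these data known, so their counts are descriptions. Motif searches used RefSeq promoters (GRCm38.p6). Deviations of same-numbered libraries of different groups correlated at most weakly over all genes tested, so numbers were not used as pairs.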

Additional observations from a re-analysis of the deposited data

Results flagged for a closer look

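A knockout's difference from WT that itself changed between 7 and 14 days was tested by the interaction contrast (edgeR's quasi-likelihood test, 2 libraries a group). There were 12 such changes past an adjusted p of 0.05, and all were lower at 14 days. For cGAS-KO the log2 difference between the effects was -4.95 for Hmox1, -4.65 for Ftl1, -4.27 for Hba-a2, -3.76 for Hbb-bs, -3.75 for Hbb-bt, -3.63 for Hba-a1, -3.11 for Alas2 and -2.32 for Slc40a1. For STING-KO it was -7.56 for Hmox1, -6.59 for Ftl1, -2.27 for Fth1 and -2.14 for Slc40a1. All 12 use the 7-day WT libraries, and the STING-KO ones also the 14-day STING-KO libraries, which stood apart from the other 8 in microglia and neuron markers; the part of those libraries in the result was not tested. The red cell genes changed only for cGAS-KO by these calls, and whether the 2 interactions differ from each other was not tested. These red cell calls use the 7-day cGAS-KO libraries and are not independent of the earlier account known when the genes were listed.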

How the results depend on the processing

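No value of the 10 genes changed direction in a called comparison under any setting run. With 1 library left out, 440 of 480 values kept their side of the threshold, 34 lost a call and 6 gained one. Under the other settings 813 of 840 values were unchanged, 18 lost a call and 9 gained one. The 840 include the untested log2 differences between the 7-day knockouts, which have no threshold and were judged by their size only. The number of genes called with 1 library left out ranged from 8 to 10 for 7-day cGAS-KO against WT (10 in the analysis reported), from 4 to 4 for 7-day STING-KO, from 0 to 0 for 14-day cGAS-KO against WT, from 3 to 7 for 14-day STING-KO against WT (5 reported), from 3 to 4 for 14-day cGAS-KO against STING-KO, from 4 to 8 for WT at 14 against 7 days (8 reported), from 5 to 7 for cGAS-KO, from 4 to 6 for STING-KO, from 8 to 8 for the cGAS-KO interaction and from 4 to 5 for the STING-KO interaction. Without a filter on low counts the WT comparison of days called 5 genes; Cd163 was then called neither in 7-day cGAS-KO against WT (adjusted p = 0.155) nor in 14-day STING-KO against WT (adjusted p = 0.162), and the cause was not tested. The same setting ended the calls of Hbb-bs between days in cGAS-KO (adjusted p = 0.120) and of Hba-a2 between days in STING-KO (adjusted p = 0.146). Fitted on the compared libraries only, Cd163 in 7-day cGAS-KO gave an adjusted p of 0.0672 and Slc40a1 in 14-day STING-KO against WT one of 0.0709; Cd163 in 14-day cGAS-KO against STING-KO gained a call (0.0141), as it did with the replicate block (0.0499). The rise of Hbb-bs between days in WT lost its call with DESeq2 (adjusted p = 0.0654), its size factors (0.0505), the legacy fit (0.0506) and the compared libraries only (0.0592). Hba-a1 between days in cGAS-KO gained one with size factors (0.0494), a stricter filter (0.0483) and the compared libraries only (0.00601). With the replicate number as a block, the 10 contrasts called 10, 4, 0, 5, 4, 6, 7, 6, 8 and 4 genes, in the order given above. Over 15 pairs of groups the same-numbered libraries' deviations correlated between -0.0923 and 0.197, 2 of them above 0.1. The numbers were therefore not used as pairs, and whether same-numbered libraries share a batch was not tested. Depth limits the rare genes most: 3 counts are 0.133 to 0.195 CPM, while Alas2 in 7-day WT stood at 0.897 and 1.43 CPM.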
